A study of Mus musculus with 25 samples.

Results

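The genes described here encode the subunits of the mitochondrial respiratory chain and ATP synthase, with some of their assembly factors, in mouse mammary tumors and glands. They were taken by symbol: every probe set with 1 gene symbol that begins with Nduf, Uqcr, Cox4 to Cox8, Sdh or Atp5, leaving out Cox8b, Cox7a1 and pseudogenes, with the brightest probe set kept for each symbol. The rule found 91 genes of the 19937 tested. Of these, 34 belong to complex I, 4 to complex II, 8 to complex III, 17 to complex IV, 17 to complex V and 11 are assembly factors of complexes I and II. Within the rule, measured values entered only through brightness, which decided between probe sets of 1 gene. The rule itself was set with earlier results of these data known.

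The study compared mammary tumors that arose after tamoxifen switched on PIK3CA with the H1047R mutation, a PI3-kinase that is always active, in different cells of the gland. In 10 arrays labelled K8-creERT2/PIK3CA H1047R tumor the Cre recombinase was driven by the keratin 8 (K8) promoter, which is active in luminal cells, on a mixed FVB and CD1 background. In 10 arrays labelled Lgr5-creERT2/PIK3CA H1047R tumor it was driven by the Lgr5 promoter, on a mixed FVB and C57/BL6 background. Reference glands are labelled as controls that carry the creERT2 of their line (3 Lgr5 glands, 2 K8 glands), so all 25 arrays share a creERT2 allele and the tumors alone are labelled with the oncogene. Tamoxifen was given to adults of 7 to 8 weeks, in a protocol that the labels repeat for the glands without saying how their mice were treated. The strain backgrounds of the 2 lines differ, so line and strain cannot be told apart. The labels do not say that each array is a separate animal, and p-values therefore measure the spread between these arrays, which may be partly technical. Whole tissue was homogenised, so fewer cells of a type and less RNA per cell cannot be told apart in any result here.

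The labelled tissue did not match its markers in several arrays, and the group names used here are the labels. The mean level of 14 adipocyte genes on the log2 scale of the arrays was 12.72, 12.53, 12.53, 12.58 and 12.57 in Lgr5 tumors 2, 6, 7, 8 and 9. No other array, the 5 glands included, exceeded 11.31. The mean of 12 epithelial genes was lower in those 5 tumor arrays (8.97 to 9.84) than in every other array, and the mean of 11 cell cycle genes ran from 6.84 to 8.02, also below all others. The glands had cell cycle means of 9.39 to 9.95 and squamous keratinocyte means of 8.53 to 10.43, a range shared with K8 tumor 9 at 9.55 and Lgr5 tumor 10 at 9.83. Brown adipocyte genes were highest in Lgr5 tumors 6, 7 and 8. Ucp1, their defining gene, read 12.47, 12.07 and 12.18 there against 5.92 and 5.89 in Lgr5 tumors 2 and 9. Elsewhere Ucp1 reached 11.30, in a K8 tumor. Skeletal muscle genes were highest in Lgr5 tumor 4 (10.34), K8 tumor 7 (10.09), Lgr5 tumor 1 (9.57) and Lgr5 tumor 10 (9.33). Every direction below is drawn between groups as labelled. For the members named as lower or higher between the tumor groups, the difference without Lgr5 tumors 6, 7 and 8 is given too. For the lists of other mitochondrial genes only the calls without these arrays are given.

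Complex I takes electrons from NADH and complex II, which is also the succinate dehydrogenase of the citric acid cycle, takes them from succinate. Both pass them through ubiquinone to complex III, and cytochrome c carries them on to complex IV, which reduces oxygen. Complexes I, III and IV pump protons, and ATP synthase (complex V) lets them flow back to make ATP. Nearly all subunits are encoded in the nucleus and must be matched to a few made in the mitochondrion, which the gene symbols analysed here do not cover. Brown fat is packed with mitochondria, and its uncoupling protein Ucp1 lets protons return without passing through ATP synthase, which is scarce in that tissue. Skeletal muscle and heart use their own isoforms of several complex IV subunits.

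Many of these genes are known targets of the nuclear respiratory factor NRF-1 and of ETS-family factors such as GABP, so their start sites were searched for both motifs. The windows reach from 250 bases before to 50 after each gene's start in RefSeq, build GRCm38.p6, and 75 of the 91 genes had at least 1. The NRF-1 motif (GCGCA, any 1 base, GCGC), searched on both strands, was found at 20 of the 75 genes (26.7%) against 7.85% of the 15613 genes tested that had a window. The ETS motif CCGGAAG, searched on both strands, was found in 21 (28%) against 13.6%. Matches of the 2 motifs do not overlap in the windows printed here. By complex, the NRF-1 motif stood at 6 of 15 genes of complex V, 2 of 3 of complex II, 4 of 10 of the assembly factors, 6 of 31 of complex I, 1 of 5 of complex III and 1 of 11 of complex IV. The YY1 motif AAGATGG was at 10 of 75 genes (13.3%) against 7.28% of all, the ERR motif TNAAGGTCA in 2.67% against 1.17%, and the palindromic CRE motif TGACGTCA in 5.33% against 2.72%. These are matches of letters, not sites shown to be bound.
Shown here are the 100 bases before the start of 5 genes whose values the results turn on, read 5′ to 3′ on the gene's own strand, with NRF-1 and ETS matches in capitals. They were chosen for holding at least 1 match and for covering complex II, ATP synthase and an assembly factor.
Sdha, chr13:74350241-74350340, minus strand: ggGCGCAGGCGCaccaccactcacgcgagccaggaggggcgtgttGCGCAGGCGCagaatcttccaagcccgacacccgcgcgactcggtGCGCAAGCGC
Sdhd, chr9:50603850-50603949, minus strand: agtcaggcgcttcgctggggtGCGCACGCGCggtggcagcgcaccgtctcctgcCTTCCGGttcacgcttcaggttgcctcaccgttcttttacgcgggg
Atp5k, chr5:108434400-108434499, minus strand: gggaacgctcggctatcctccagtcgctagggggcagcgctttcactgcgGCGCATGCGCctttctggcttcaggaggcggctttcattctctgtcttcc
Ndufaf1, chr2:119662835-119662934, minus strand: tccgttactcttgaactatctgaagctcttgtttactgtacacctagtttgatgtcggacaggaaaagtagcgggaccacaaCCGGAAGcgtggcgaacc
Atp5g2, chr15:102671048-102671147, minus strand: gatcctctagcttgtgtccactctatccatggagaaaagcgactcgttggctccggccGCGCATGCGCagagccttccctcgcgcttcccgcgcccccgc
The 100 bases printed for Sdha hold 3 NRF-1 matches, those for Sdhd 1 of each motif, those for Atp5k and Atp5g2 1 NRF-1 match and those for Ndufaf1 1 ETS match. The only ETS match of Atp5k lies 12 bases after its start, outside the printed stretch. Sdha, Sdhd, Atp5k and Ndufaf1 were lower in the K8 than in the Lgr5 tumors and Atp5g2 was higher, as described below. Among the genes called lower in the K8 tumors, 6 of 24 with a window (25%) held the NRF-1 motif and 9 of 24 (37.5%) the ETS motif, against 14 of 51 (27.5%) and 12 of 51 (23.5%) of the other members.

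Most respiratory chain genes peaked in the same 3 arrays, all labelled Lgr5 tumor. Each gene's value was set against its own mean over the 25 arrays, and these deviations were averaged over the 91 genes. The mean deviation was 0.56 in Lgr5 tumor 8, 0.49 in Lgr5 tumor 6 and 0.37 in Lgr5 tumor 7 on the log2 scale. It was 0.13 in Lgr5 tumor 2, 0.11 in Lgr5 tumor 9 and 0.097 in K8 tumor 7, and the other 19 arrays lay between -0.16 (K8 tumor 9) and -0.011 (Lgr5 tumor 4). In Lgr5 tumors 6, 7 and 8, 86, 82 and 85 of the 91 genes were above their own mean, against 9 of 91 in K8 tumor 9. Lgr5 tumor 8 held the highest value of 63 of the 91 genes (69.2%), where it held the highest value of 10.9% of all genes.

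**Figure D1:**
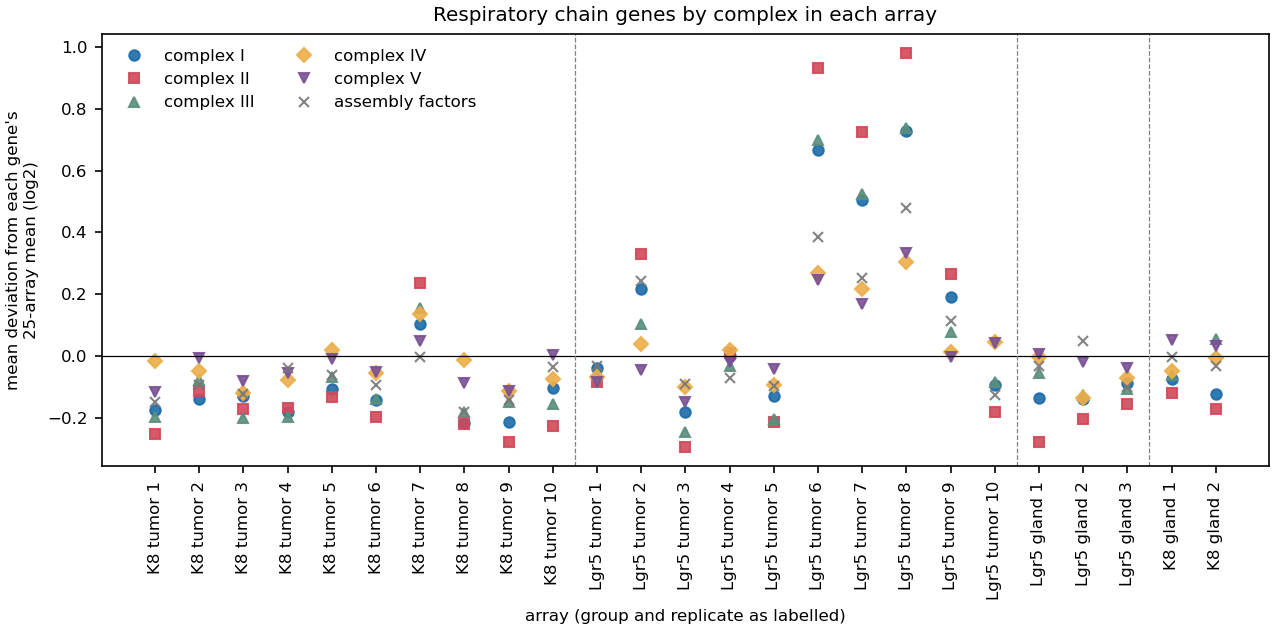
Mean deviation of each complex's genes from their own 25-array means (vertical axis, log2) in each array (horizontal axis), with a marker for each complex and dashed lines between the labelled groups. Lgr5 tumors 6, 7 and 8 stand highest for all 6 gene groups, and complex II lies above complexes IV and V in each of the 3.

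How far these 3 arrays stood above the mean differed between complexes. In Lgr5 tumor 8 the mean deviation was 0.98 for complex II, 0.74 for complex III, 0.73 for complex I and 0.48 for the assembly factors, but 0.33 for complex V and 0.31 for complex IV. Lgr5 tumor 6 gave 0.93, 0.70, 0.67, 0.38, 0.25 and 0.27 in the same order, and Lgr5 tumor 7 gave 0.72, 0.53, 0.51, 0.25, 0.17 and 0.22. In each of the 3 arrays complexes I, II and III thus stood further above their means than complexes IV and V. The complex IV mean takes in dim genes such as Cox7b2 (25-array mean 5.03), Cox8c (5.69) and Cox6b2 (6.17), and complex V genes are mostly bright. Spread depends on brightness, as given below, and its part in this ranking was not tested. In 62 of the 91 genes (68.1%) Lgr5 tumors 6, 7 and 8 were the 3 highest arrays, against 4.46% of all genes. This held for 4 of 4 genes of complex II, 8 of 8 of complex III, 26 of 34 of complex I, 11 of 17 of complex V, 10 of 17 of complex IV and 3 of 11 assembly factors. Among the K8 tumors, tumor 7 was the highest for complexes I to V, at 0.24 for complex II, 0.15 for complex III, 0.13 for complex IV, 0.10 for complex I and 0.048 for complex V.

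The genes also differed in how much they varied at all. The median SD over the 25 arrays was 0.234 for the 91 genes and 0.169 for all genes tested. It was 0.379 for complex II, 0.292 for complex III, 0.283 for complex I, 0.218 for the assembly factors, 0.184 for complex IV and 0.176 for complex V. The median SD depends on brightness. For genes with a mean below 7 it was 0.134 over 10 members and 0.0859 over all genes. For genes with a mean from 7 to 11 it was 0.292 over 50 members and 0.254 over all genes. For genes at 11 or above it was 0.176 over 31 members and 0.196 over all genes. The 5 most variable members were Ndufs5 (0.736), Cox6a2 (0.622), Ndufb8 (0.561), Ndufb3 (0.542) and Ndufv1 (0.534). The 5 least variable were the dim testis isoforms Cox7b2 (0.0599) and Cox8c (0.0820), both with means below 7, and the bright Atp5j (0.0814), Ndufc2 (0.0900) and Atp5d (0.101).

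The 3 arrays with the highest respiratory chain values were also the 3 with the highest brown adipocyte values. The 8 brown adipocyte genes include Cox8b and Cox7a1, complex IV forms of muscle and brown fat that the name rule left out of the members. Part of this match thus sets chain genes beside chain genes. Ucp1 alone, which is not a chain subunit, was also highest in these 3 arrays. Ucp1 also reached 11.30 in a K8 tumor. The highest respiratory chain deviation of the K8 tumors was 0.097, in K8 tumor 7, which also had the highest brown adipocyte mean of that group. The mean of the 8 brown adipocyte genes was 10.99, 10.81 and 10.54 in Lgr5 tumors 6, 8 and 7, 9.82 in K8 tumor 7, 9.25 in Lgr5 tumor 4 and 8.63 in Lgr5 tumor 1, and at most 7.75 elsewhere. Lgr5 tumors 2 and 9 matched tumors 6 to 8 in the 14 adipocyte genes but had brown adipocyte means of 7.66 and 7.57, and their respiratory chain deviations were 0.13 and 0.11. Lgr5 tumors 4 and 1, with raised brown adipocyte and skeletal muscle means, had deviations of -0.011 and -0.056. Lgr5 tumors 6, 7 and 8 had skeletal muscle means of 6.42 to 6.55, among the lowest of the 25 arrays.

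**Figure D2:**
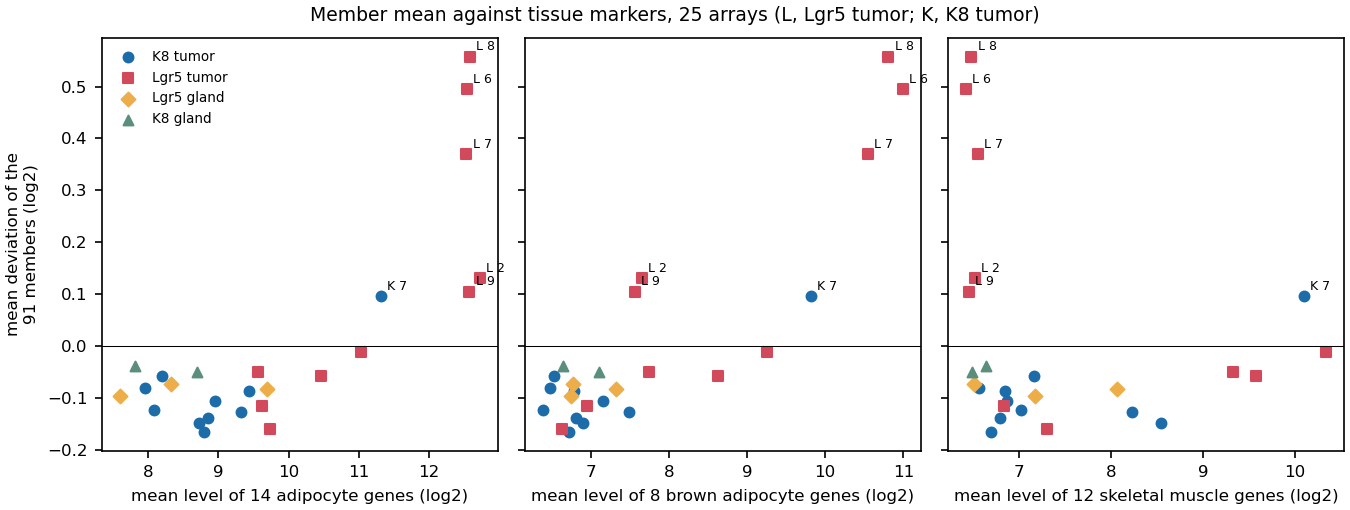
Mean deviation of the 91 members (vertical axis, log2) against the mean level of adipocyte, brown adipocyte and skeletal muscle genes (horizontal axes, log2), 1 point per array, with symbols for the labelled groups. Lgr5 tumors 6, 7 and 8 are high on the adipocyte and brown adipocyte axes and low on the skeletal muscle axis. Lgr5 tumors 2 and 9 are as high on the adipocyte axis but well below tumors 6, 7 and 8 on the brown adipocyte axis.

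The tumors of the 2 lines differed in 31 of the 91 genes. limma, fitted over all genes and all 25 arrays with Benjamini-Hochberg adjustment, called 29 genes lower and 2 higher in the K8 than in the Lgr5 tumors at an adjusted p under 0.05, and 60 did not pass. Of all genes tested, 9.00% were called lower, 12.3% higher and 21.3% in either direction. The median log2 difference was -0.19 over the members and 0.0069 over all genes. Genes called lower made up 17 of 34 in complex I (median difference -0.30), 3 of 4 in complex II (-0.42), 2 of 8 in complex III (-0.28), 2 of 17 in complex IV (-0.11), 1 of 17 in complex V (-0.10) and 4 of 11 assembly factors (-0.17). Without Lgr5 tumors 6, 7 and 8, a choice made after seeing the values, limma called 0 of the 91 genes and 0% of all 19937, and the members' median difference was -0.042. At an unadjusted p under 0.05, 10 members were lower and 4 higher, beside 7.83% and 11.5% of all genes. Without Lgr5 tumors 2, 6, 7, 8 and 9 it again called 0 of the 91 and 0% of all genes, with 3 lower and 3 higher unadjusted beside 2.90% and 5.32% of all, and the median was -0.0052. With the adipocyte mean as a covariate it called 0 of the 91 and 0% of all, with 0 lower and 1 higher unadjusted beside 0.843% and 1.69%. A brown adipocyte covariate was also added after seeing the values, as the mean of the brown adipocyte genes without Cox8b, Cox7a1 and Ppargc1a. With it limma called 0 of the 91 and 0% of all, with 9 lower and 2 higher unadjusted beside 6.53% and 9.67%.

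The 29 genes called lower stayed below 0 without Lgr5 tumors 6, 7 and 8, and 28 of them were nearer to 0 than with all arrays, the exception being Ndufs5. These genes were picked as lower in a fit that holds the same remaining arrays, so a kept sign is no separate support. The arrays left out were picked for high member values, so a move towards 0 is none either. Without Lgr5 tumors 2, 6, 7, 8 and 9, 28 of the 29 were below 0, and with the adipocyte covariate 12 were, so that the direction of 17 turned. Tissue markers differed between the same groups: 14 of 14 adipocyte and 2 of 8 brown adipocyte genes were lower in the K8 tumors, 11 of 11 cell cycle, 8 of 12 epithelial and 2 of 7 basal genes were higher, and 0 of 12 skeletal muscle genes passed. Lymphoid genes were lower in the K8 tumors too, in 4 of 4 B cell and 2 of 5 T cell genes. Averaged over the 4 B cell genes, Lgr5 tumor 8 read 8.21, tumor 7 8.13, tumor 2 7.68, tumor 1 7.37 and tumor 6 5.85, while no K8 array exceeded 6.14. The part of these markers in the members' differences was not tested, beyond the fits with an adipocyte or brown adipocyte covariate. The adipocyte mean ran from 7.96 to 11.31 in the K8 tumors and from 9.56 to 12.72 in the Lgr5 tumors.

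Single libraries also moved this count. Leaving out Lgr5 tumor 2, 6, 7 or 8 left 9 genes called lower, Lgr5 tumor 9 left 10, and Lgr5 gland 1 left 19. Leaving out K8 tumor 4 or 8 left 11, K8 tumor 3 or 10 left 13, K8 tumor 1 or 6 left 14, K8 tumor 2 left 15, K8 tumor 5 left 16, and K8 tumor 9, K8 gland 1 or K8 gland 2 left 18. In each of these fits all 29 genes stayed below 0, which is no separate support, since they were picked as lower in nearly the same arrays. Over all fits that left out 1 array, 4.43% to 12.1% of all genes were called lower. The calls higher, 2 in the full set, were 1 without K8 tumor 4, 5, 6 or 8 or Lgr5 tumor 2 or 8. Leaving out Lgr5 tumor 3 gave 43 lower and 3 higher. After quantile normalization the split was 20 lower and 4 higher, beside 8.78% and 12.3% of all genes.

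**Figure D3:**
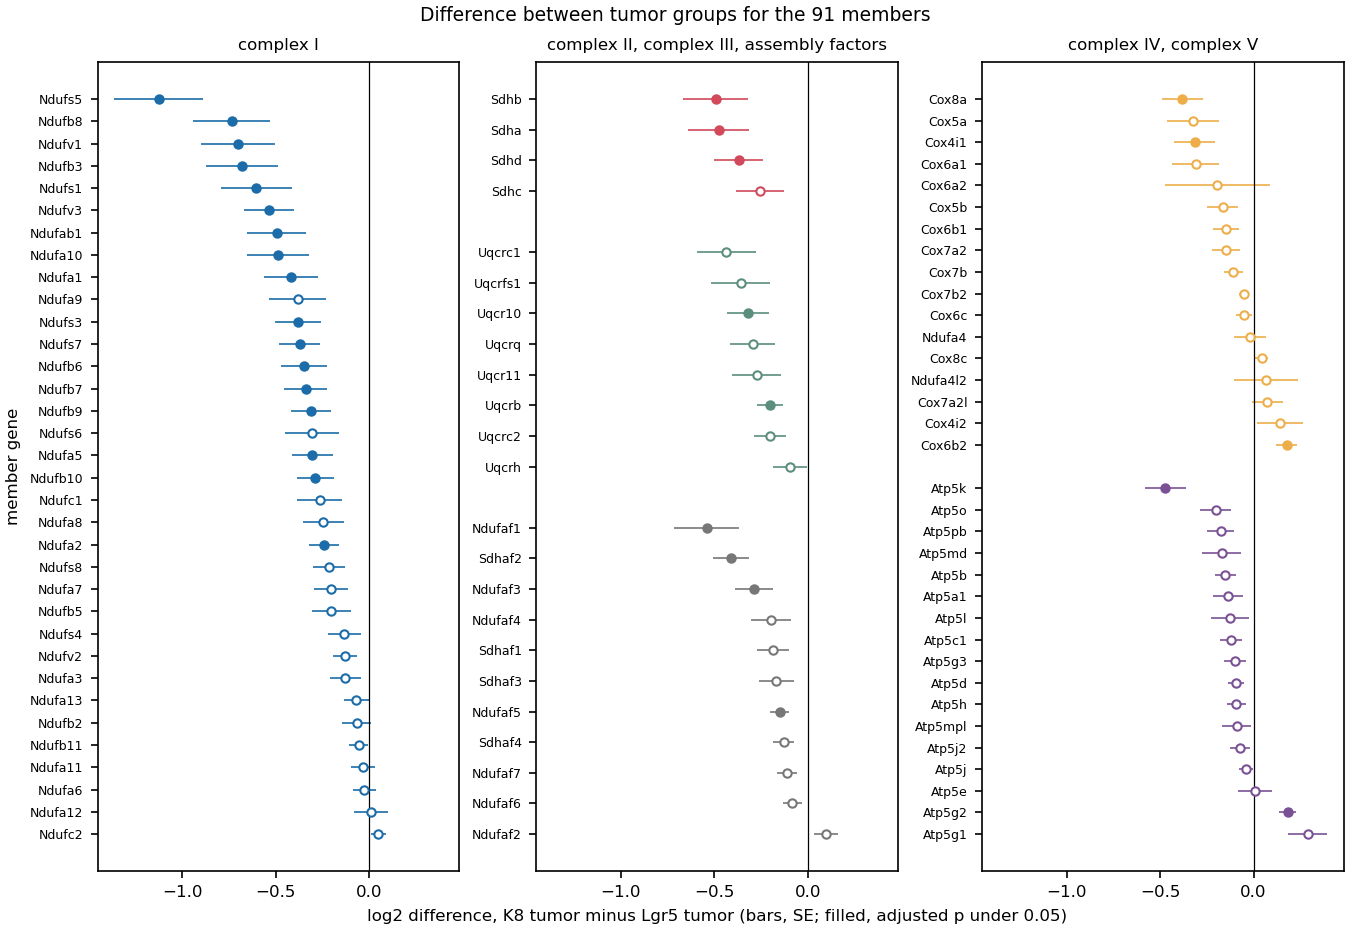
Log2 difference between the K8 and Lgr5 tumors (horizontal axis, K8 minus Lgr5, bars are SE of the limma fit) for each of the 91 members (vertical axis), grouped by complex, with filled points for an adjusted p under 0.05. In complex I 17 of 34 points are filled and all of them lie left of 0, while most points of complexes IV and V are open and nearer to 0.

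Complex I held most of the genes called lower in the K8 tumors. Ndufs5, an accessory subunit on the intermembrane side, read 6.10 to 6.73 (median 6.41) in the K8 tumors and 6.28 to 8.51 (median 7.57) in the Lgr5 tumors, with 6.61, 6.33 and 7.83 in glands of the Lgr5 line and 6.44 and 6.55 in those of the K8 line. Its pattern did not follow that of the other members: Lgr5 tumors 1, 2, 4, 6, 7, 8, 9 and 10 and Lgr5 gland 3 were at 7.28 or above, while all 12 K8 arrays, Lgr5 tumors 3 and 5 and Lgr5 glands 1 and 2 were at 6.73 or below. The difference was -1.13 ± 0.24 (SE, adjusted p = 0.0118), and -1.14 without Lgr5 tumors 6, 7 and 8. Another probe set, which the annotation assigns to Ndufs5 together with its pseudogene and which was left out by the rule, ran from 7.54 to 8.75, was highest in Lgr5 tumors 6, 7 and 8 and did not split the arrays this way, so the result for Ndufs5 rests on 1 probe set.

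Ndufb8, an accessory subunit of the membrane arm, read 9.13 to 10.09 (median 9.34) in the K8 tumors and 9.32 to 11.18 (median 10.01) in the Lgr5 tumors. The highest Lgr5 values, 11.04, 10.81 and 11.18, were in tumors 6, 7 and 8, the ranges overlapped, and the difference was -0.74 ± 0.21 (SE, adjusted p = 0.0195), or -0.37 without these 3. The glands of both lines were close together, at 9.51, 9.56 and 9.65 for Lgr5 and 9.64 and 9.69 for K8. Ndufv3, an accessory subunit of the NADH-oxidising module, read 8.40 to 8.84 (median 8.51) and 8.60 to 9.66 (median 9.04) in K8 and Lgr5 tumors, a difference of -0.54 ± 0.13 (SE, adjusted p = 0.0148) that was -0.30 without Lgr5 tumors 6, 7 and 8. Here Lgr5 tumors 2, 6, 7, 8 and 9, at 9.33, 9.64, 9.58, 9.66 and 9.28, all lay above the highest K8 tumor, and the other 5 Lgr5 tumors lay within the K8 range.

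Ndufv1, which binds NADH and the flavin that takes its electrons, read 9.68 to 10.46 (median 9.93) in the K8 tumors and 9.81 to 11.53 (median 10.53) in the Lgr5 tumors, and K8 tumor 7 was the highest of the K8 tumors. Its difference was -0.70 ± 0.20 (SE, adjusted p = 0.0202), and -0.35 without Lgr5 tumors 6, 7 and 8. Ndufb3, another membrane-arm subunit, read 7.20 to 7.54 (median 7.34) and 7.31 to 8.98 (median 7.93), and Lgr5 tumors 2, 6, 7, 8 and 9 were all at 8.30 or above against 7.55 or below in the other 20 arrays, for a difference of -0.68 ± 0.19 (SE, adjusted p = 0.0202) that was -0.34 without tumors 6, 7 and 8. At the other end Ndufc2, a subunit of the membrane arm, stayed between 12.38 and 12.71 in all 25 arrays and did not pass the test, at 0.048 ± 0.040 (SE, adjusted p = 0.42). The other 12 complex I genes called lower ranged from -0.60 (Ndufs1, which holds iron-sulfur clusters) to -0.24 (Ndufa2), at -0.24 and -0.16 without those 3 tumors, and the 17 that did not pass from -0.38 (Ndufa9) to 0.048 (Ndufc2).

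Complex II is the smallest complex, with 4 subunits that were all measured. Sdha, the flavoprotein that oxidises succinate, read 10.88 to 11.53 (median 11.03) in the K8 tumors and 10.91 to 12.26 (median 11.45) in the Lgr5 tumors. The values 12.26, 12.21 and 12.23 in Lgr5 tumors 6, 7 and 8 lay above every other array, Lgr5 tumors 2 and 9 followed at 11.67 and 11.67, and the highest K8 tumor was tumor 7 at 11.53. The difference was -0.48 ± 0.16 (SE, adjusted p = 0.043). Sdhb, the iron-sulfur subunit, read 10.08 to 10.79 (median 10.24) and 10.12 to 11.65 (median 10.71) in K8 and Lgr5 tumors, a difference of -0.49 ± 0.17 (SE, adjusted p = 0.0457).

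Sdhd, one of the membrane anchors, read 9.90 to 10.59 (median 10.15) in the K8 tumors and 10.07 to 11.23 (median 10.38) in the Lgr5 tumors, with a difference of -0.37 ± 0.13 (SE, adjusted p = 0.044). Sdhc, the other anchor, read 10.61 to 11.08 (median 10.92) and 10.67 to 11.85 (median 11.05) and did not pass, at -0.26 ± 0.13 (SE, adjusted p = 0.155). All 4 genes had their 3 highest values in Lgr5 tumors 8, 6 and 7, and without these the differences were -0.18 for Sdha, -0.18 for Sdhb and -0.13 for Sdhd. The glands of both lines lay within the K8 tumor range for Sdha, at 11.03, 11.01 and 11.23 for Lgr5 and 11.32 and 11.04 for K8, and for Sdhb at 10.18, 10.13 and 10.39 and 10.28 and 10.38.

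In complex III the 2 genes called lower were small subunits. Uqcrb, which lies near the ubiquinone site, read 12.11 to 12.32 (median 12.25) in the K8 tumors and 12.18 to 12.82 (median 12.38) in the Lgr5 tumors, a difference of -0.20 ± 0.070 (SE, adjusted p = 0.0414). Uqcr10 read 9.54 to 9.95 (median 9.67) and 9.50 to 10.59 (median 9.89), a difference of -0.32 ± 0.11 (SE, adjusted p = 0.0492). Both had their highest values in Lgr5 tumors 6, 7 and 8 (10.58, 10.40 and 10.59 for Uqcr10), and both overlapped between the groups. Without these 3 the differences were -0.076 for Uqcrb and -0.098 for Uqcr10. The core subunit Uqcrc1 had a larger difference but did not pass, at -0.44 ± 0.16 (SE, adjusted p = 0.0544). The other 5 genes that did not pass lay between -0.36 (Uqcrfs1, the Rieske iron-sulfur protein) and -0.095 (Uqcrh).

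Complex IV changed in few genes. Cox4i1, the common form of a regulatory subunit, read 10.45 to 10.85 (median 10.58) in the K8 tumors and 10.57 to 11.41 (median 10.83) in the Lgr5 tumors, a difference of -0.32 ± 0.11 (SE, adjusted p = 0.0435). Cox8a, the common form of the smallest subunit, read 11.51 to 11.92 (median 11.58) and 11.64 to 12.46 (median 11.95), a difference of -0.38 ± 0.11 (SE, adjusted p = 0.0213). In Lgr5 tumors 2, 6, 7, 8 and 9 Cox8a stood at 12.25, 12.46, 12.35, 12.46 and 12.19, above the highest value of the other 20 arrays, 11.92 in K8 tumor 7. Cox6b2, known as a testis form, was higher in the K8 tumors, at 0.18 ± 0.057 (SE, adjusted p = 0.0326), but its values lay low on the scale, at 5.98 to 6.59 (median 6.29) and 5.96 to 6.28 (median 6.12). Without Lgr5 tumors 6, 7 and 8 the differences were -0.12 for Cox4i1, -0.20 for Cox8a and 0.22 for Cox6b2. Cox6b1, the common partner of Cox6b2, read 11.92 to 12.25 (median 12.03) and 11.87 to 12.51 (median 12.13) and did not pass, at -0.15 ± 0.069 (SE, adjusted p = 0.127). The 14 complex IV genes that did not pass ranged from -0.33 (Cox5a) to 0.14 (Cox4i2).

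Among the isoforms of complex IV with restricted expression, Cox6a2 and Cox4i2 had their peaks in other arrays than their common partners Cox6a1 and Cox4i1. Cox6a2, the heart and skeletal muscle form, read 8.52 in Lgr5 tumor 4, 8.47 in K8 tumor 7, 7.86 in Lgr5 tumor 1 and 7.70 in Lgr5 tumor 10. The remaining 21 arrays reached 7.04 at most. These 4 arrays are those with the highest skeletal muscle means, from 9.33 to 10.34, and whether muscle in the sample accounts for it was not tested. In Lgr5 tumors 6, 7 and 8 Cox6a2 read 6.56, 6.63 and 6.49, while Cox6a1, the widely expressed form, had its 3 highest values there (11.74, 11.64 and 11.71) against 10.66 to 11.11 in the others. Neither passed between the tumor groups, at -0.19 ± 0.28 (SE, adjusted p = 0.673) for Cox6a2 and -0.31 ± 0.13 (SE, adjusted p = 0.0775) for Cox6a1.

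Cox4i2, a form known from lung and from low oxygen, was highest in K8 tumors 1, 5 and 6 at 7.97, 7.95 and 7.73, followed by Lgr5 tumor 3 at 7.71. Lgr5 tumors 6, 7 and 8 read 7.15, 7.24 and 7.29, near the middle of the range, and the glands read 6.95, 6.83 and 6.97 for Lgr5 and 6.82 and 7.00 for K8. Its tumor difference was 0.14 ± 0.12 (SE, adjusted p = 0.435). Ndufa4l2, a gene known to be induced by hypoxia-inducible factor, was highest in Lgr5 gland 1 at 8.39, then in K8 tumor 1 at 7.79 and K8 gland 2 at 7.76. Its partner Ndufa4, now counted with complex IV, was highest in Lgr5 tumors 8, 6 and 7 at 11.28, 11.08 and 10.93 and read 10.52 to 10.81 (median 10.72) in the K8 tumors, so the 2 genes peaked in different arrays. The testis forms Cox7b2 and Cox8c stayed between 4.92 and 5.18 and between 5.56 and 5.94, while Cox7b read 12.24 to 12.56 (median 12.39) in the K8 tumors and 12.31 to 12.72 (median 12.46) in the Lgr5 tumors.

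**Figure D4:**
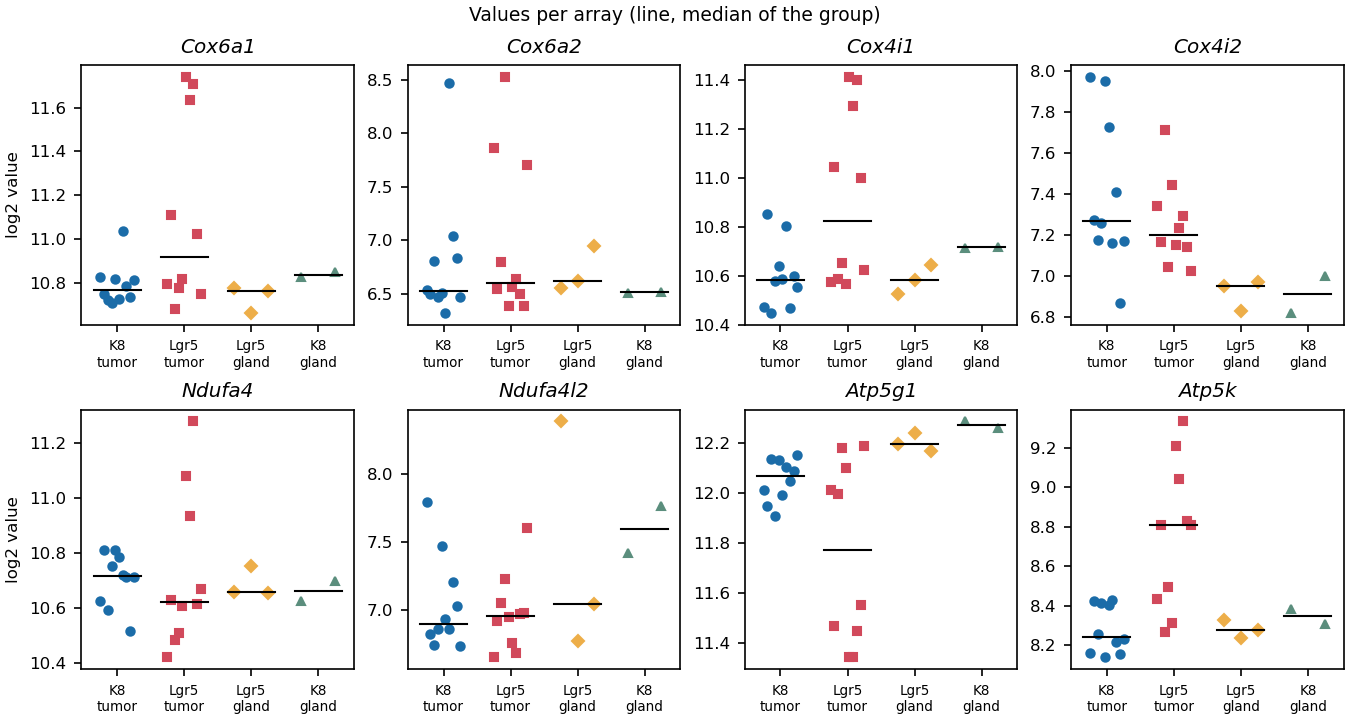
Log2 values per array (vertical axes) of 8 members in the 4 labelled groups (horizontal axes), with a line at each group's median. Cox6a1 and Cox4i1 are highest in 3 Lgr5 tumor arrays, Cox6a2 in 4 tumor arrays of both lines, and Atp5g1 is lowest in 5 Lgr5 tumor arrays.

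The 2 complex IV genes left out by the rule are the muscle and brown fat forms. Cox8b read 12.97, 12.62 and 12.92 in Lgr5 tumors 6, 7 and 8, 12.49 in K8 tumor 7 and 11.53 and 11.43 in Lgr5 tumors 2 and 9, and was lower in the K8 tumors at -3.45 ± 0.91 (SE, adjusted p = 0.0167), with -2.59 without Lgr5 tumors 6, 7 and 8. Cox7a1 read 11.97, 11.43 and 11.79 in Lgr5 tumors 6, 7 and 8 and 11.14 in K8 tumor 7, and did not pass at -1.23 ± 0.55 (SE, adjusted p = 0.115). Unlike Cox6a2, both were thus high in the arrays where most respiratory chain genes peaked.

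ATP synthase had the median difference nearest to 0 of the 5 complexes, with 1 gene called lower and 1 of its membrane ring genes called higher. Atp5k, subunit e, which helps to pair the enzyme in the inner membrane, read 8.14 to 8.43 (median 8.24) in the K8 tumors and 8.26 to 9.34 (median 8.81) in the Lgr5 tumors, a difference of -0.47 ± 0.11 (SE, adjusted p = 0.0138), and -0.28 without Lgr5 tumors 6, 7 and 8. Its highest values were 9.34, 9.21 and 9.04 in Lgr5 tumors 8, 6 and 7, and all Lgr5 tumors except 3 and 5 lay above the highest K8 tumor. The 15 complex V genes that did not pass ranged from -0.20 (Atp5o) to 0.29 (Atp5g1).

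Atp5g1, Atp5g2 and Atp5g3 encode the same mature ring subunit with different import sequences. Atp5g2 read 12.28 to 12.52 (median 12.43) in the K8 tumors and 12.00 to 12.45 (median 12.26) in the Lgr5 tumors and was higher in the K8 tumors, at 0.18 ± 0.048 (SE, adjusted p = 0.0164), with 0.17 without Lgr5 tumors 6, 7 and 8. Atp5g1, whose message is known to be scarce in mouse brown fat, read 11.47, 11.34, 11.34, 11.45 and 11.55 in Lgr5 tumors 2, 6, 7, 8 and 9 and 11.91 to 12.29 in the other 20 arrays, with no overlap between the sets. That gap included the adipocyte-rich arrays with low Ucp1, and its tumor difference did not pass, at 0.29 ± 0.11 (SE, adjusted p = 0.0536). Atp5g3 was high in the same arrays, at 11.61, 11.69, 11.67, 11.82 and 11.66, against 11.22 to 11.66 elsewhere, with an overlap, and its difference was -0.10 ± 0.059 (SE, adjusted p = 0.227). The stalk genes Atp5d and Atp5j stayed within 12.77 to 13.17 and 11.67 to 12.01 and did not pass.

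Among the assembly factors, 4 of 11 were lower in the K8 tumors. Sdhaf2, which attaches the flavin to Sdha, read 8.64 to 9.06 (median 8.82) in the K8 tumors and 8.89 to 9.61 (median 9.24) in the Lgr5 tumors, a difference of -0.41 ± 0.097 (SE, adjusted p = 0.0137). Ndufaf1, which builds the membrane arm of complex I, read 7.26 to 7.52 (median 7.41) and 7.22 to 8.74 (median 7.91), a difference of -0.54 ± 0.17 (SE, adjusted p = 0.0314). For Ndufaf1 the 5 adipocyte-rich arrays stood apart, at 8.51, 8.60, 8.35, 8.74 and 8.24 in Lgr5 tumors 2, 6, 7, 8 and 9, against at most 7.59 elsewhere. Ndufaf5, which modifies a core complex I subunit, had a small difference of -0.15 ± 0.053 (SE, adjusted p = 0.044), and Ndufaf3 one of -0.29 ± 0.10 (SE, adjusted p = 0.0484). Without Lgr5 tumors 6, 7 and 8 these 4 differences were -0.28 for Sdhaf2, -0.28 for Ndufaf1, -0.068 for Ndufaf5 and -0.14 for Ndufaf3. The 7 that did not pass ranged from -0.20 (Ndufaf4) to 0.099 (Ndufaf2).

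The tumors were then compared with the glands of their own line. In the Lgr5 line limma called 0 of the 91 genes higher and 0 lower, where 5.28% of all genes were called higher, 10.6% lower and 15.9% in either direction, and 21 members were higher and 1 lower at an unadjusted p under 0.05, beside 12.8% and 19.1% of all genes. The median difference, tumor minus gland, was 0.19 over the members and -0.011 over all genes, and 81 of the 91 lay above 0. By complex the median was 0.44 for complex II, 0.31 for complex I, 0.23 for complex III, 0.12 for complex IV, 0.087 for complex V and 0.074 for the assembly factors. Without Lgr5 tumors 6, 7 and 8 the median over the members was 0.052, with 0 called beside 0.587% of all genes higher and 1.94% lower, and 3 higher and 3 lower unadjusted beside 8.94% and 15.8%. Without Lgr5 tumors 2, 6, 7, 8 and 9 it was 0.012, with 0 called beside 0% of all genes higher and 0.00502% lower, and 1 higher and 6 lower unadjusted beside 6.66% and 12.4%. In the same comparison 14 of 14 adipocyte, 6 of 7 fibroblast and 6 of 7 endothelial genes were higher in the tumors, 13 of 14 squamous, 9 of 11 cell cycle, 4 of 5 neutrophil and 3 of 12 epithelial genes were lower, and 0 of 8 brown adipocyte genes passed. The adipocyte covariate put the members' median at -0.086, and the part of the other lists was not tested. Sdha, for example, read 11.03, 11.01 and 11.23 in the Lgr5 glands, all within the range of the Lgr5 tumors, and differed by 0.45 ± 0.24 (SE, adjusted p = 0.204). Estimated weights per array, which lower the part of arrays far from their group, raised the calls to 39 higher and 1 lower, beside 17.4% and 21.8% of all genes. Leaving out Lgr5 tumor 10 gave 6 higher and 1 lower, Lgr5 tumor 1, 3 or 5 gave 2 and 1, Lgr5 tumor 4 gave 1 and 1, and K8 tumor 9 gave 1 and 0. Over all fits that left out 1 array, 0.181% to 9.86% of all genes were called higher and 1.08% to 15.2% lower.

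In the K8 line limma again called 0 genes higher and 0 lower, where 3.42% of all genes were called higher, 5.69% lower and 9.10% in either direction, and 5 members were higher and 4 lower at an unadjusted p under 0.05, beside 10.2% and 14.4% of all genes. The median difference was -0.047 over the members and -0.012 over all genes, and 36 of the 91 lay above 0. The medians by complex ran from -0.11 (complex V) to -0.014 (complex I). Sdhb was at 10.28 and 10.38 in the glands, inside the K8 tumor range of 10.08 to 10.79 (median 10.24), a difference of -0.035 ± 0.30 (SE, adjusted p = 0.972). With 2 glands, the precision of this comparison is limited. The fit on the K8 arrays alone called 7 members lower and 0 higher, beside 8.78% and 5.56% of all genes, and leaving out K8 tumor 9 gave 1 higher and 1 lower, beside 6.97% and 10.0%. In this line 12 of 14 squamous and 3 of 5 neutrophil genes were lower in the tumors, and 5 of 7 fibroblast and 4 of 7 basal genes were higher.

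The glands of the 2 lines and the difference between the 2 tumor-gland comparisons gave no calls. Between K8 and Lgr5 glands limma called 0 of the 91 genes, 0 of them also at an unadjusted p under 0.05 (1.17% of all genes were higher and 0.426% lower unadjusted), with a background of 0% of all genes and a median of 0.034. The difference of the tumor-gland differences, K8 minus Lgr5, had 0 calls (0 higher and 5 lower unadjusted, beside 2.55% and 1.88% of all genes), a background of 0% and a median of -0.23. Of its values 15 of 91 lay above 0, and this comparison shares its arrays with those above.

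Other mitochondrial genes, from lists of related pathways, were read from the same fit. Between the tumor groups 9.00% of all genes were called lower in the K8 tumors and 12.3% higher. Without Lgr5 tumors 6, 7 and 8, 0 of all 19937 genes were called, so no list held a call in that comparison. Between K8 and Lgr5 tumors 8 of 13 citric acid cycle genes were lower and 0 higher, with a median of -0.46, led by citrate synthase Cs at -0.56 ± 0.16 (SE, adjusted p = 0.019), the dehydrogenase subunit Dld at -0.71 and Idh3g at -0.43. Of 16 fatty acid oxidation genes 10 were lower and 0 higher, with a median of -0.62, led by Acadm at -0.99 ± 0.26 (SE, adjusted p = 0.0157), Hadhb at -1.18 and Acadl at -0.74. Both medians lay further below 0 than that of the respiratory chain genes, -0.19. Assembly factors outside the name rule were lower in 9 of 29, led by the copper chaperone Cox17 at -0.39, Tmem126b at -0.46 and Foxred1 at -0.63. In Lgr5 tumor 8 the mean deviation was 1.32 for fatty acid oxidation, 1.01 for the citric acid cycle and 0.34 for 77 mitochondrial ribosome genes, beside 0.56 for the respiratory chain. In Lgr5 tumor 2 those 4 values were 0.61, 0.39, 0.053 and 0.13. That array had an adipocyte mean of 12.72 and a brown adipocyte mean of 7.66, with the brown adipocyte gene Cox8b at 11.43 or above.

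Lists nearer to gene expression and electron carriage held calls in both directions, in a comparison that called 9.00% of all genes lower and 12.3% higher. The regulators, with 1 of 12 in each direction, were near those shares. The mitochondrial ribosome genes, with 2 of 77 higher, lay below the share called higher. Without Lgr5 tumors 6, 7 and 8 none of these lists held a call, as 0 of all 19937 genes were called. Of 77 mitochondrial ribosome genes 11 were lower and 2 higher in the K8 tumors, led by Mrps21 at -0.39, Mrpl30 at -0.46 and, upward, Mrpl19 at 0.19. Of 11 carriers and partners, cytochrome c (Cycs, -0.30) and the complex III gene Cyc1 (-0.41), which the name rule does not reach, were lower, and Atpif1, which inhibits ATP synthase running in reverse, was higher at 0.42 ± 0.12 (SE, adjusted p = 0.0187). Of 12 regulators, Tfb1m, which modifies mitochondrial ribosomal RNA, was lower at -0.36 and Gabpb1, a subunit of the ETS-family factor GABP, was higher at 0.36. Of 17 glycolysis and lactate genes, Aldoa (-0.42), Hk2 (-1.16) and Pdk4 (-1.72) were lower and Aldoc was higher (1.23).

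The lists were also read against the glands of each line. In the Lgr5 line, where 5.28% of all genes were higher and 10.6% lower, fatty acid oxidation genes were higher in 2 of 16, Decr1 at 1.37 and Etfb at 0.76, glycolysis and lactate genes were lower in 4 of 17, led by Pgk1 at -0.82, Slc2a1 at -1.54 and Slc16a3 at -1.83, and 3 of 12 regulators were lower (Pprc1 -0.57, Nrf1 -0.26, Gabpb1 -0.43). Without Lgr5 tumors 6, 7 and 8, 1 regulator was still called and 0 genes of fatty acid oxidation and of glycolysis and lactate were, and without Lgr5 tumors 2, 6, 7, 8 and 9 or with the adipocyte covariate none of these lists held a call. In the K8 line, where 3.42% of all genes were higher and 5.69% lower, 5 of 17 glycolysis and lactate genes were lower, led by Ldha at -0.48, Slc16a3 at -2.38 and Pdk1 at -1.34, with 8 of 77 mitochondrial ribosome genes (Mrpl45 -0.53, Mrpl54 -0.45, Mrpl43 -0.47). The ADP/ATP carrier Slc25a4, the muscle and heart form, was higher in the tumors of both lines (0.39 and 0.48), and the outer membrane channel Vdac1 was lower in both (-0.22 and -0.23). In the Lgr5 line neither was called without Lgr5 tumors 2, 6, 7, 8 and 9 or with the adipocyte covariate. The gland arrays had high squamous and cell cycle means, and the part of these in the differences was not tested.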

How the data were processed

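Total RNA from homogenised tissue (100 ng input) was amplified and measured on Affymetrix arrays, as the labels' protocols state. The deposited table holds log2 values of 34760 probe sets (4.13 to 13.9); the submitters' processing notes name affy, and its version, background correction and normalization are not stated there. The log base was inferred from the range. Array medians ran from 6.34 to 6.43, and the highest correlation between 2 arrays was 0.995, with no identical columns. The number of arrays limits the precision.

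Gene names came from the platform annotation (21640 with 1 symbol, 1321 with several, 11799 unlisted), and the brightest was kept for each of 19937 symbols. Of the members 18 had several probe sets, which shared a direction between tumor groups in 17, Sdhaf4 being the exception. Another 6 probe sets with several symbols were left out. Group means were fitted with limma 3.58.1 in R 4.3.3 (lmFit, eBayes, no covariates, Benjamini-Hochberg over all genes, threshold 0.05). The same fit was run on simulated data with independent noise for each gene. Those data do not carry differences that many genes of an array share. Figures were drawn with matplotlib 3.10.9.

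Members and lists were chosen with earlier results of these data known. Named were the 3 members of each complex with the smallest adjusted p per direction, isoform pairs, the Sdh subunits, the 5 most and least variable members and the leading genes of each other list. Uqcrc1, Ndufaf3 and genes named at the ends of ranges were added after their values were seen. Replicate numbers did not pair the tumors of the 2 lines. Alternatives were other normalizations, probe set rules, filters, fits, covariates and sets of arrays.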

Additional observations from a re-analysis of the deposited data

Results flagged for a closer look

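Among 80 sets of 10 tumor values (40 member quantities in each tumor group), 12 held 1 array far from the other 9 by Dixon's criterion. In 11 of them the array was K8 tumor 7, above the other K8 tumors. Chance sets off the criterion in about 1 in 20 independent sets, but these quantities share arrays and the means contain the single genes, so the 12 cases are not separate trials. Its mean deviations were 0.0967 for all members (others -0.16 to -0.06), 0.104 for complex I (others -0.22 to -0.10), 0.236 for complex II (others -0.28 to -0.11) and 0.154 for complex III (others -0.20 to -0.07). Its single values were 11.04 for Cox6a1, 8.47 for Cox6a2, 12.25 for Cox6b1, 11.92 for Cox8a, 10.46 for Ndufv1, 10.79 for Sdhb and 10.59 for Sdhd, against highest other K8 values of 10.83, 7.04, 12.08, 11.68, 10.08, 10.38 and 10.22. This array had the highest adipocyte, brown adipocyte and skeletal muscle means of the K8 tumors (11.31, 9.82 and 10.09), and their part in these values was not tested. The remaining case was a low value, Sdhc at 10.61 in K8 tumor 9 against 10.84 to 11.08 in the other K8 tumors. No member quantity in the Lgr5 tumors met the criterion.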

How the results depend on the processing

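Counts of calls by limma depended on the arrays and weights used, and the cause was not tested. For K8 against Lgr5 tumors, the 29 lower and 2 higher calls became 0 and 0 with the adipocyte or the brown adipocyte covariate. They also became 0 and 0 without Lgr5 tumors 6, 7 and 8 and without Lgr5 tumors 2, 6, 7, 8 and 9. The same held without those 5 and the squamous-high K8 tumor 9 and Lgr5 tumor 10. In each of these fits 0% of all genes were called. Fitting only the groups compared gave 11 lower, array weights 60 lower and quantile normalization 4 higher, the last beside 12.3% of all genes. Where a count of calls anywhere in this section or above has no share of all genes beside it, it says nothing about the members in particular. The members' median became 0.039 with the adipocyte covariate, -0.0052 without the 5 arrays and 0.0079 without the 7. The same settings moved the Lgr5 tumor-gland median to -0.086, 0.012 and 0.011, and that of the difference of tumor-gland comparisons to -0.027, -0.057 and -0.048.

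For Lgr5 tumors against glands, members called higher and lower were 2 and 1 over genes with a mean of at least 6. They were 39 and 1 with array weights, beside 17.4% and 21.8% of all genes. They were 5 and 1 when the 2 squamous-high tumors were left out, and 1 and 4 when all 7 were. For K8 tumors against glands they were 6 and 6 with array weights, 1 and 2 with the adipocyte covariate and 0 and 1 with the brown adipocyte covariate. They were 1 and 7 without the 5 arrays, 2 and 1 when the 2 squamous-high tumors were left out, and 7 and 10 when all 7 were. They were 1 and 3 without Lgr5 tumors 6, 7 and 8, and 0 and 7 on the K8 arrays alone, the last beside 5.56% and 8.78% of all genes. The calls over all genes moved as well. Leaving out 1 array at a time put them at 0.0100% to 6.97% higher and 0.140% to 10.0% lower for K8 tumors against glands. Counts in this paragraph without a share beside them are thus not results about the members.

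With the adipocyte covariate the sign turned for 17 of the 29 genes called lower: Cox4i1 (0.073), Cox8a (0.019), Ndufa10 (0.14), Ndufab1 (0.083), Ndufaf1 (0.025), Ndufaf3 (0.041), Ndufb6 (0.072), Ndufb8 (0.031), Ndufb9 (0.055), Ndufs1 (0.061), Ndufs3 (0.076), Ndufs7 (0.057), Ndufv1 (0.061), Sdha (0.15), Sdhb (0.17), Sdhd (0.038) and Uqcr10 (0.027). It also turned for Ndufaf1 without the 5 arrays (0.0045) and for Cox4i1 (0.0042), Ndufa10 (0.0079), Ndufa5 (0.057) and Uqcr10 (0.016) without the 7. Of the 31 genes called in either direction, 31 passed under array weights and the brightness filter, while 2 lost the call with the mean over probe sets, 3 with trend and robust settings, 3 without the 2 squamous-high tumors, 4 with the replicate block, 7 after median centring, 9 after quantile normalization and 18 when only the groups compared were fitted.

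Leaving out 1 array at a time gave 9 to 43 lower and 1 to 3 higher calls between tumor groups, 0 to 6 higher and 0 to 1 lower for Lgr5 tumors against glands, 0 to 1 in each direction for K8 tumors against glands, and 0 for the other comparisons. The medians ran from -0.22 to -0.14, from 0.15 to 0.22, from -0.073 to -0.039, from 0.025 to 0.059 (glands) and from -0.27 to -0.19 (difference). Replicate numbers did not pair the tumors: deviations of the 10 same-numbered tumors correlated at -0.15 to 0.51, over 0.1 in 4. The replicate block gave 27 lower and 2 higher calls between tumor groups. The difference of the comparisons was not run on only the groups compared, since it needs all 4. Brightness limits dim members such as Cox7b2, Cox8c and Cox6b2.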
